A study of Mus musculus with 6 samples.

Results

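Proprioceptors and myelinated low-threshold mechanoreceptors are large neurons of the dorsal root ganglion (DRG). Proprioceptors innervate muscle spindles and tendon organs and report limb position, and mechanoreceptors innervate the skin and report touch and vibration. Single-cell studies of mouse DRG recognize these neurons by sets of marker genes, among them genes of calcium buffers, of transmitter packaging and of oxidative metabolism. Here 8 such genes, Pvalb, Spp1, Calb1, Calb2, Whrn, Esrrg, Necab2 and Slc17a7, were taken by name, and every probe set whose annotated symbol is exactly one of them was taken. This gave 15 of the 45037 tested probe sets, for 7 of the 8 genes. Spp1 (osteopontin, a secreted phosphoprotein that marks proprioceptors) has no probe set in the annotation used here and was not analysed. A gene is represented by its brightest probe set, with the highest mean log2 intensity over the 6 arrays, and dimmer probe sets are described beside it.

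The arrays compare Meis1cko with control DRGs in order to ask whether loss of the TALE homeobox gene Meis1 from nociceptors alters gene expression in the adult ganglion. RNA came from ganglia of cervical to lumbar levels at P60, and 1 Affymetrix mouse genome array was run for each of 3 Meis1cko and 3 control mice, whose sex the array labels do not give. Meis1cko mice carry the floxed Meis1 allele, in which an exon of the homeodomain is flanked by LoxP sites, and the Nav1.8-Cre transgene, which is active in most nociceptive neurons from before birth. The labels call the other group control only, and floxed littermates are named as controls for the behavioral tests of the study. Cre was thus directed at nociceptors and not at large neurons in particular. At P60, however, the study detected Meis1 only in a few large neurons and no longer in nociceptors. It also reports that known mechanoreceptor and proprioceptor markers were similar in both genotypes. In whole ganglia, fewer neurons of a type and less RNA per neuron cannot be told apart.

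The values are normalized intensities on a linear scale, with array medians between 62.5 and 65.5, and the number of arrays limits their precision. Both replicate 3 arrays stand apart. Actb is read by control probe sets at its 3′ and its 5′ end, whose log2 difference tells how far the labelled RNA reaches, and this difference was 0.44 on the Meis1cko and 0.42 on the control replicate 3 array, and between 1.23 and 1.66 on the other 4. Meis1 itself had intensities of 66.0, 72.1 and 64.2 in Meis1cko and 110, 144 and 90.2 in control DRGs on its brightest probe set. The groups did not overlap, at a log2 fold change of -0.74, with an SE of 0.18. In limma the p of Meis1 was 0.00434 before and 1 after adjustment over all probe sets. With the replicates paired it was 0.00052 before and 0.16 after adjustment in limma. Its dimmer probe sets had 0.13, with every Meis1cko array above every control array, and -0.16, and the average over the 3 was -0.26. Where this probe set lies in relation to the deleted exon was not analysed. The 7 measured markers of sensory neurons, which include Avil and Prph, were brighter than the median of every array, so the tissue carried the neuronal transcripts its label names. Over all probe sets, 4 were higher and 3 lower in Meis1cko DRGs at an adjusted p under 0.05 in limma, which is 0.0155% of those tested.

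None of the 7 measured genes differed between the genotypes at the adjusted threshold. Their log2 fold changes lay between 0.04 and 0.38 with a median of 0.15, against a median of -0.01 over the brightest probe sets of all genes. All 7 were above 0, where 45.82% of the brightest probe sets of all genes were. The 95% intervals of the brightest probe sets, each gene taken alone, all lay between 0.762 and 1.68-fold. In limma 1 of the 7, Esrrg, had an unadjusted p under 0.05, as did 2.32% of all probe sets. None passed the thresholds of the methods of the study, a p under 0.05 with more than 1.5-fold change, which 0.675% of all probe sets did. None of the 7 had every Meis1cko array above every control array, which 3.21% of all probe sets had. The shares of all probe sets include dim ones, whereas the 7 genes were each read on the brightest.

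**Figure D1:**
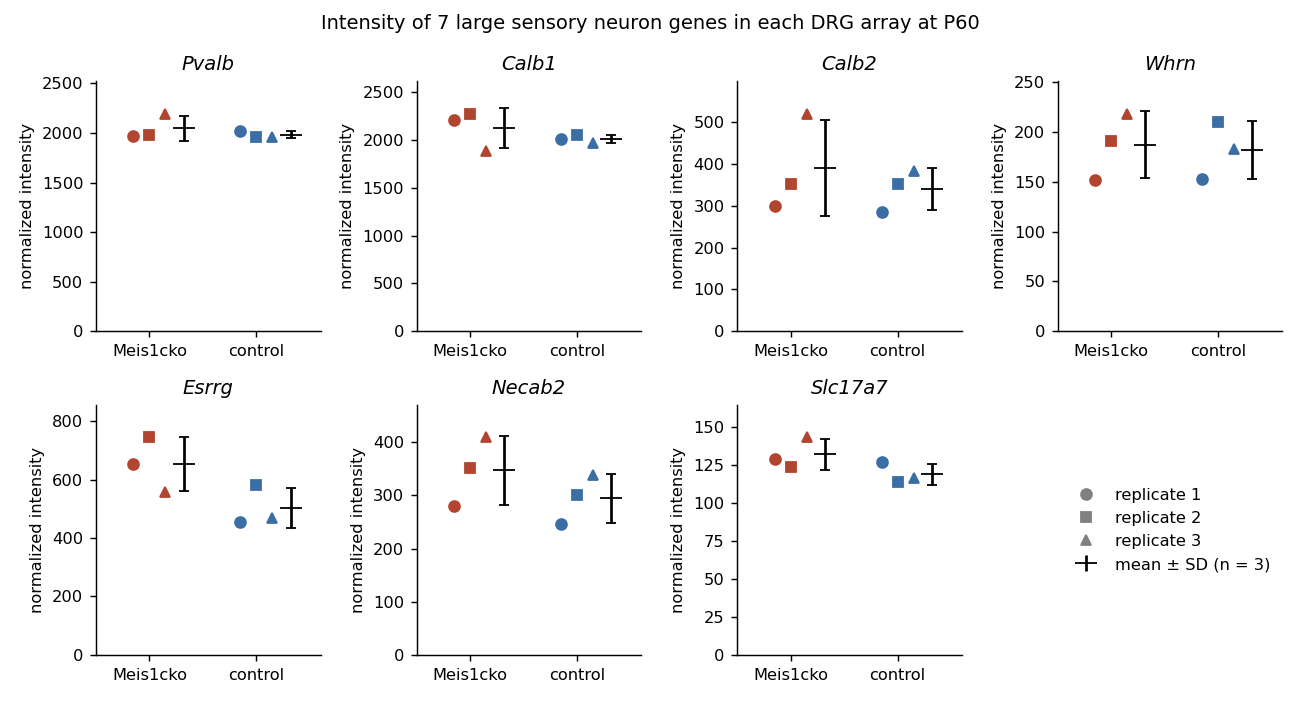
Normalized intensity (linear scale, from 0) of the brightest probe set of each of the 7 measured genes in 3 Meis1cko (red) and 3 control (blue) arrays, 1 mouse each, with the mean ± SD beside them. The genotypes overlap in every panel, and Calb2 and Necab2 are highest in replicate 3 of both genotypes.

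Pvalb encodes parvalbumin, a cytosolic calcium buffer of the EF-hand family and the classical marker of proprioceptors. It had intensities of 1969, 1978 and 2195 in Meis1cko DRGs, against 2024, 1964 and 1958 in control DRGs. The arrays of both genotypes lay close together, and only Meis1cko replicate 3 stood above the rest. The means were 2048 ± 128 in Meis1cko and 1982 ± 36.3 in control DRGs (SD, n = 3 mice each), a log2 fold change of 0.05, with an SE of 0.11 and adjusted p = 1 in limma. The 95% interval ran from 0.861 to 1.24-fold. Without Meis1cko replicate 3 the log2 fold change was -0.01, so its direction rests on that array.

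Pvalb is also abundant in fast skeletal muscle, which can adhere to dissected ganglia. The summed intensity of 8 muscle genes (Acta1, Ckm, Mylpf, Tnnt3, Tnni2, Tnnc2, Myh4 and Atp2a1) was 1420, 1142 and 583 on the Meis1cko arrays, against 4030, 1375 and 361 on the control arrays. Control replicate 1 carried the most muscle transcript and control replicate 3 the least, so that the sum spanned 11.2-fold over the 6 arrays. Pvalb spanned 1.12-fold over the same arrays and was 2024 and 1958 on those same control arrays. None of the 8 muscle genes passed the adjusted threshold, and 7 of the 8 had a lower mean log2 intensity in Meis1cko DRGs.

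**Figure D2:**
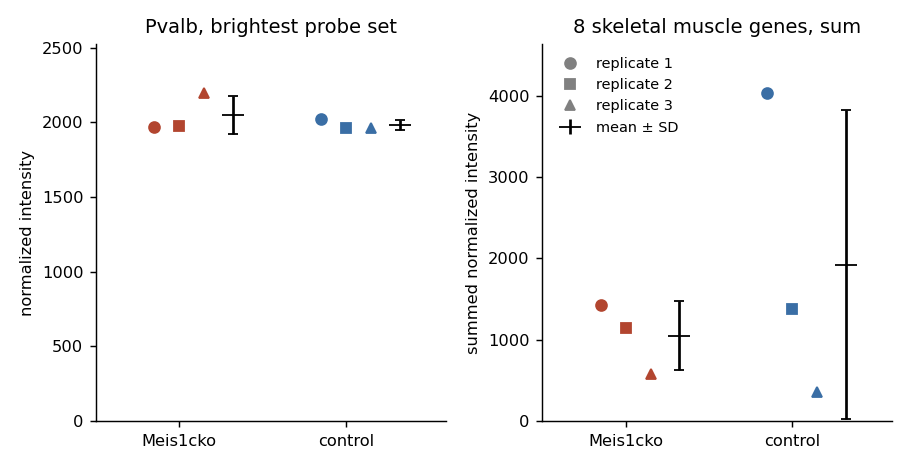
Normalized intensity of Pvalb (left) and the summed normalized intensity of 8 skeletal muscle genes (right) in each Meis1cko and control array, both axes linear from 0, with the mean ± SD beside the points. The muscle sum reaches 4030 in control replicate 1 and 361 in control replicate 3, where Pvalb is 2024 and 1958.

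The other calcium-binding genes were Calb1, Calb2 and Necab2. Calb1 encodes calbindin, a calcium buffer of rapidly adapting mechanoreceptors. Its intensities were 2214, 2276 and 1889 in Meis1cko DRGs, against 2007, 2058 and 1965 in control DRGs. The control arrays lay inside the range of the Meis1cko arrays. The means were 2127 ± 208 in Meis1cko and 2010 ± 46.2 in control DRGs, a log2 fold change of 0.08, with an SE of 0.12 and adjusted p = 1 in limma. With single arrays left out it lay between 0.03 (without Meis1cko replicate 2) and 0.16 (without Meis1cko replicate 3), and averaged over the 4 probe sets it was 0.17.

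Calb2 encodes calretinin, a related buffer that labels a subset of large DRG neurons. It had intensities of 299, 352 and 520 in Meis1cko DRGs, against 284, 353 and 383 in control DRGs. The first and second replicates of the genotypes lay side by side, and Meis1cko replicate 3 was the highest array. The log2 fold change was 0.17, with an SE of 0.22 and adjusted p = 1 in limma, and without Meis1cko replicate 3 it was -0.06.

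Necab2 encodes a neuronal EF-hand protein that interacts with membrane receptors. Its intensities were 280, 352 and 409 in Meis1cko DRGs, against 246, 300 and 338 in control DRGs. The groups overlapped, while within each replicate number the Meis1cko array was the higher one, by 0.19, 0.23 and 0.27 on the log2 scale. The log2 fold change was 0.23, with an SE of 0.19 and adjusted p = 1 in limma. It was 0.10 without Meis1cko replicate 3, 0.11 without control replicate 1 and 0.38 without Meis1cko replicate 1.

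Esrrg had the smallest p of the 7 genes. It encodes estrogen-related receptor gamma, an orphan nuclear receptor that drives genes of oxidative metabolism. Its intensities were 653, 744 and 559 in Meis1cko DRGs, against 455, 580 and 470 in control DRGs. Only the lowest Meis1cko and the highest control array were in reversed order. The means were 652 ± 92.8 in Meis1cko and 502 ± 68.1 in control DRGs (SD, n = 3 mice each), a log2 fold change of 0.38 and an SE of 0.16. In limma its p was 0.0481 before and 1 after adjustment over all probe sets. The 95% interval of this single gene ran from 1.003 to 1.68-fold, and averaged over its 3 probe sets the log2 fold change was 0.06. Both dimmer probe sets of Esrrg lay on the other side of 0, with log2 fold changes of -0.11 and -0.09. They were below the median of every array, with control means of 30.9 and 13.8.

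Slc17a7 encodes VGLUT1, which loads glutamate into synaptic vesicles and is found in the central terminals of large myelinated afferents. It had intensities of 129, 124 and 143 in Meis1cko DRGs, against 127, 114 and 116 in control DRGs. The Meis1cko array was the higher one in each pair, although Meis1cko replicate 2 lay below control replicate 1. The log2 fold change was 0.15, with an SE of 0.12 and adjusted p = 1 in limma, and it was 0.09 without Meis1cko replicate 3. Slc17a6, which encodes VGLUT2, the main vesicular glutamate transporter of DRG neurons, had a log2 fold change of -0.07, and of -0.27 averaged over its probe sets.

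Whrn encodes whirlin, a scaffold protein of hair cell stereocilia that in mouse DRG marks proprioceptors. Its intensities were 151, 191 and 218 in Meis1cko DRGs, against 153, 210 and 182 in control DRGs. The ranges of the genotypes nearly coincided. The log2 fold change was 0.04, with an SE of 0.18 and adjusted p = 1 in limma, and it was -0.08 without Meis1cko replicate 3 and also -0.08 without control replicate 1.

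The other 8 probe sets of these genes were dim. Of 4 probe sets each for Calb1 and Whrn and 3 for Esrrg, those after the brightest lay between 10.1 and 91.8 on every array, and none passed the adjusted threshold. For Calb1 the dimmer log2 fold changes were 0.24, 0.36 and 0.01. The one with 0.36 had intensities of 80.2, 91.8 and 36.1 in Meis1cko DRGs, against 51.8, 67.4 and 35.7 in control DRGs. Replicate 3 was the lowest array of both genotypes on it, whereas on the brightest Calb1 probe set replicate 3 was within 1.20-fold of all others. For Whrn they were 0.10, 0.16 and 0.21.

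**Figure D3:**
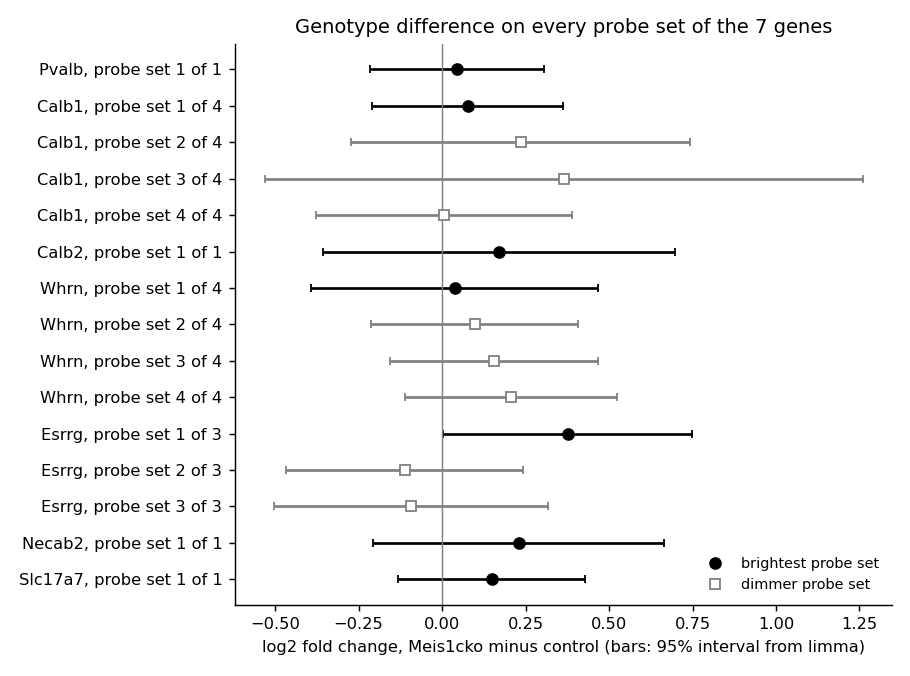
Log2 fold change (Meis1cko minus control, 3 mice each) of all 15 probe sets of the 7 genes, with 95% intervals from limma. Filled circles mark the brightest probe set of each gene and open squares the dimmer ones. The interval of the brightest Esrrg probe set (0.38) ends just above 0 and all other intervals cross 0, and the dimmer Esrrg probe sets lie at -0.11 and -0.09.

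Arrays of the same replicate number deviated together, and the genes were therefore also compared within pairs. The labels give replicate numbers but name no pairs, and arrays numbered 1 and 2 also correlated across numbers. The pairing of arrays 1 and 2 is therefore an assumption. In each pair Esrrg was higher on the Meis1cko side, by 0.52, 0.36 and 0.25 on the log2 scale, as were Necab2 and Slc17a7. These 3 of 7 genes, each read on its brightest probe set, are 42.9%. Of all probe sets, dim ones included, 13.2% were higher in all 3 pairs. Pvalb, Calb1 and Calb2 were higher in 2 pairs and Whrn in 1. In the paired fit 1 of the 7, again Esrrg, had an unadjusted p under 0.05, as did 6.99% of all probe sets. Its paired p was 0.00946 before and 0.501 after adjustment over all probe sets in limma, and Necab2 had 0.0545 and 0.72. No gene passed the adjusted threshold with the replicates paired.

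**Figure D4:**
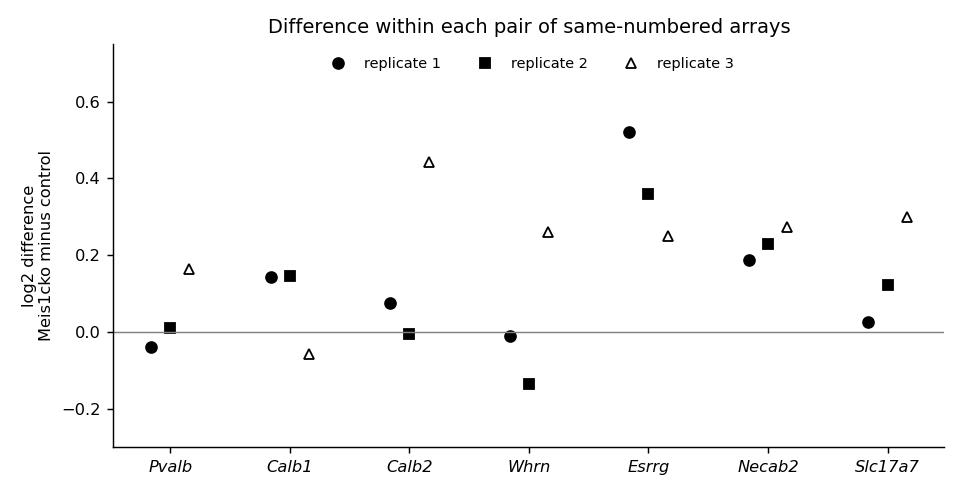
Log2 difference (Meis1cko minus control) within each pair of same-numbered arrays for the brightest probe set of the 7 genes. Esrrg, Necab2 and Slc17a7 have all 3 points above 0, and for Calb2 and Whrn the replicate 3 pair (0.44 and 0.26) lies above the others, which are near or below 0.

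The genes differed in how much they varied between mice. Among control arrays, the coefficient of variation was 1.83% for Pvalb, 2.30% for Calb1 and 5.75% for Slc17a7, and between 13.6% and 15.9% for Esrrg, Calb2, Necab2 and Whrn. The median was 11.01% over the genes at or above the median intensity. Calb2 and Necab2 were higher on the replicate 3 arrays than on the other 4 by 0.48 and 0.35 on the log2 scale, and Esrrg was lower by 0.22. The Actb 3′ to 5′ difference was lower on the same replicate 3 arrays, and its part in these values was not tested. Without both replicate 3 arrays, the log2 fold changes were 0.44 for Esrrg, 0.21 for Necab2, 0.14 for Calb1, 0.07 for Slc17a7, 0.03 for Calb2, -0.01 for Pvalb and -0.07 for Whrn, and none passed the adjusted threshold.

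The most similar profiles over the 6 arrays were found by the root mean square distance between log2 values centred on each gene, among 12178 genes at or above the median intensity. The nearest genes to Esrrg were Zfp804a and Arhgef3 (distances 0.0591 and 0.0610, where the SD of Esrrg itself was 0.248). Eng and Lipe were nearest to Calb2, Chrnd and Muc13 to Necab2, and Ttf1 and Brat1 to Whrn, at distances between 0.0379 and 0.0545. Pvalb (Sebox and L1cam), Calb1 (Chic2 and Oxr1) and Slc17a7 (Dolpp1 and Calr) varied less, with SDs of 0.0579, 0.0941 and 0.108, and 79, 62 and 16 genes lay within 0.05 of them. None of the nearest genes was among the 7 genes themselves.

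Other genes of large sensory neurons gave a similar picture, with none past the adjusted threshold. Of 32 listed genes 27 were measured, and 21 of them lay above 0 with a median log2 fold change of 0.09. Those with the smallest p were Ntrk3 (the neurotrophin 3 receptor of proprioceptors) at 0.48, Pou4f3 (a POU transcription factor) at -0.49, Cacna1h (a T-type calcium channel) at 0.26 and Shox2 (a homeobox factor of mechanoreceptors) at 0.21. On the brightest probe set, every Meis1cko array was above every control array for 4 of the 27 genes (14.8%), Ntrk3, Kcna1, Cacna1h and Shox2. Of all probe sets, dim ones included, 3.21% were so. Averaged over all its probe sets, Ntrk3 had a log2 fold change of -0.00.

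**Figure D5:**
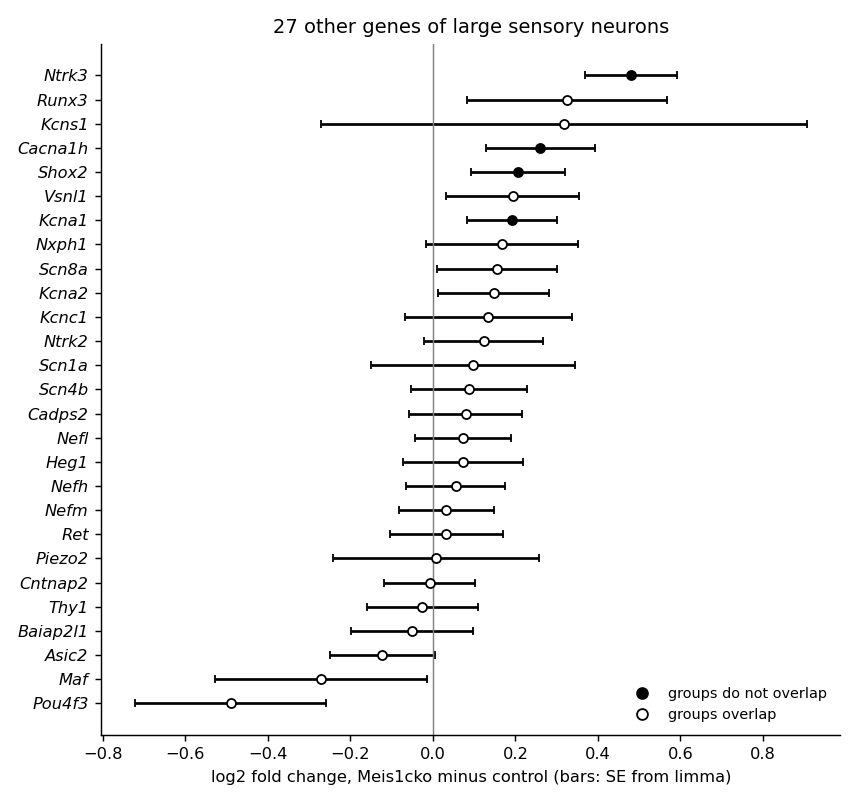
Log2 fold change (Meis1cko minus control, bars SE from limma, 3 mice each) of the brightest probe set of 27 other genes of large sensory neurons, ordered by value. Filled circles mark genes whose genotypes do not overlap, which are Ntrk3, Kcna1, Cacna1h and Shox2, and Pou4f3 lies lowest at -0.49.

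Relatives and partners of the 8 genes were not past the adjusted threshold either. Of 13 measured EF-hand relatives, which share Vsnl1 with the list above, 7 lay above 0 on the log2 scale, with 0.19 for Vsnl1, 0.13 for Necab1, -0.17 for Hpcal4 and -0.13 for Ncald. Of 5 receptors and coactivators related to Esrrg, Ppargc1b had 0.28, Esrra 0.08, Perm1 -0.11 and Ppargc1a -0.15. The value of Ppargc1b rests on single arrays, with 0.01 without control replicate 3, 0.06 without Meis1cko replicate 2 and 0.58 without Meis1cko replicate 3. Of 7 measured whirlin partners 2 were above 0. Myo7a, which encodes a myosin of stereocilia, had intensities of 119, 50.4 and 101 in Meis1cko DRGs, against 183, 124 and 140 in control DRGs. Its groups did not overlap, and it differed by -0.79 on the log2 scale, with an SE of 0.32, and by -0.42 without Meis1cko replicate 2. In limma its p was 0.0429 before and 1 after adjustment. Myo15, Mpp1 and Ush1c had 0.18, -0.09 and -0.07. Although Spp1 was not analysed, 11 relatives and integrin or CD44 receptors of osteopontin were measured. Of these 5 lay above 0, and Itgb3 had -0.43, Itga9 -0.34, Ibsp 0.32 and Dspp 0.23. The groups of Itgb3 did not overlap, and its p in limma was 0.0285 before adjustment.

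Markers of other cells that could carry these transcripts were read on the same arrays. None of 6 measured spinal cord neuron markers was above the median of all arrays, and their summed intensity was 212 to 226 in Meis1cko and 198 to 216 in control DRGs. Of 6 oligodendrocyte and astrocyte markers, 2 (Mag and Aqp4) were above the median of all arrays and 1 (Mog) was in the lowest 25% of probe sets on every array. Their sum was 463 to 601 in Meis1cko and 535 to 623 in control DRGs. The sum of 7 sensory neuron markers was 45569 to 54392 in Meis1cko and 46818 to 53934 in control DRGs, and that of 5 nociceptor markers 20799 to 23860 and 21463 to 22167. Of these 5, 3 lay above 0 on the log2 scale and none passed the adjusted threshold. The highest was Scn10a at 0.48, with 1213, 950 and 993 in Meis1cko and 752, 696 and 804 in control DRGs. In limma its p was 0.00975 before adjustment. The sum of the 7 genes described here, in which bright probe sets weigh most, was 5696 to 6017 in Meis1cko and 5296 to 5579 in control DRGs. The sum of 5 fibroblast markers was 5529 to 7284 in Meis1cko and 7822 to 12351 in control DRGs. All 5 were below 0 on the log2 scale, none passed the adjusted threshold in the unpaired fit and Lum passed it with the replicates paired (adjusted p = 0.0686 from limma, and 0.00717 with the replicates paired). The sum of 7 bone and cartilage markers was 568 to 616 in Meis1cko and 854 to 903 in control DRGs, although 4 of the 7 were above 0 and their median log2 fold change was 0.02. The gap between these sums lay in the cartilage gene Cnmd alone. Its intensities were 257, 304 and 286 in Meis1cko and 599, 605 and 571 in control DRGs. In limma its adjusted p was 0.0866, and 0.0252 with the replicates paired. The part of these markers in the values of the 7 genes was not tested.

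MEIS proteins bind DNA at the core TGACAG, and promoters of the genes were searched for it because Meis1 is the deleted gene. RefSeq promoters (GRCm38.p6) were at hand for 6 of the 8 genes, with Calb1 and Calb2 missing, and the 250 bases before each of 11 start sites were read on both strands for TGACAG or its reverse complement CTGTCA. A match was found before 1 of the 11 starts, where 15.9% of 32851 such windows in the genome hold one. It lies 218 bases before the second listed start of Pvalb, at chr15:78204438-78204467 on the minus strand. As the only match, it is shown with the motif in capitals.
Pvalb, second start: cccgtatgccctTGACAGcggcagaacgct
The match is a description of the sequence, and binding was not measured.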

How the data were processed

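Normalized intensities of the 6 arrays, on a linear scale, were deposited by the authors, whose methods name the Affymetrix command console for the array images and Genespring for basic analysis. The methods of summarising and normalizing probes are not given in the sources used here. The label protocol names Trizol for the extraction and the methods an RNeasy kit. The intensities were taken to log2, with a floor of 1, and 64 control probe sets were dropped. Genes were named from the array annotation, which gives 34945 of 45037 tested probe sets 1 symbol, leaves 9160 unnamed and gives 932 several. Of the named ones, 34741 have a gene ID found in the RefSeq table of GRCm38.p6, through which older symbols were matched.

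The genotypes were compared by linear models with eBayes moderation in limma (version 3.58.1, R version 4.3.3). The fit had no block for replicates, and the Benjamini-Hochberg adjustment covered 45037 probe sets with a threshold of 0.05. The number of arrays limits the precision. The fit was tested on simulated data. The arrays share replicate numbers in the labels, and same-numbered arrays deviated from their group means together (correlations 0.424, 0.535 and 0.766). For the paired fit, the numbers were taken to pair the arrays. Arrays numbered 1 and 2 also correlated across numbers (0.319 and 0.337), and those numbered 3 correlated with the others at -0.6 to -0.517. Deviations from a group mean sum to 0, so a shift shared by the arrays numbered 3 alone makes those numbered 1 and 2 correlate. The correlations therefore cannot show how arrays 1 and 2 pair. Named genes were the members, Meis1, up to 4 genes with the smallest p of each list of relatives, partners or other large neuron genes, and the 2 genes nearest in profile to each member. Kcna1 and Scn10a, whose groups do not overlap, Cnmd and Lum were named after their values were seen, and some genes of the marker lists are named as examples. The members and lists were chosen with earlier results of these data known. Alternatives were an eBayes trend, the methods' t-test, array weights, other normalizations, filters and offsets, the replicate block, arrays left out, and the mean over a gene's probe sets.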

Additional observations from a re-analysis of the deposited data

How the results depend on the processing

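None of the 7 genes passed the adjusted threshold or the thresholds of the methods under any of the 18 alternatives. Their log2 fold changes kept their sign in 122 of 129 cases. This count includes the eBayes trend, the methods' t-test, the filters and the replicate block. These leave the log2 fold change itself unchanged, so the sign could not turn under them. The exceptions were Pvalb without both replicate 3 arrays (-0.0145) and with single arrays left out (-0.00592 to 0.0724), Calb2 with single arrays left out (-0.0564 to 0.342) and Whrn with array weights (-0.0192), without both replicate 3 arrays (-0.0728) and with single arrays left out (-0.0821 to 0.182). Among the other named genes, the sign turned for Ntrk3 (-0.0032) and Necab1 (-0.0353) averaged over their probe sets, Perm1 so averaged (0.115) or with single arrays left out (-0.259 to 0.0748), Ncald with array weights (0.0262) or without both replicate 3 arrays (0.00822), and Esrra (-0.0491) and Ush1c (0.0345) with array weights. Itgb3 passed the adjusted threshold with array weights only (adjusted p = 0.0481 from limma).

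Over all probe sets, 7 passed the adjusted threshold, against 37 with the replicate block, 177 with array weights, 26 without both replicate 3 arrays, 11 after quantile normalization, 4 above the median filter, 1 with an offset of 16 or 50, 0 in the methods' t-test and 1 to 15 with single arrays left out (15 without Meis1cko replicate 3). Among the genes named, the block changed the calls of Cnmd and Lum only. At the thresholds of the methods, 304 passed, against 185 in the methods' t-test, 644 with array weights, 134 with an offset of 50, 583 without both replicate 3 arrays and 257 to 654 with single arrays left out, the highest counts being 654 without Meis1cko and 475 without control replicate 3. The cause of these differences was not tested. With 3 mice per genotype, small differences in these genes cannot be resolved. Dim probe sets near 20 lie near the 25th percentile of the arrays, and how far their ratios can be relied on was not tested.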
